A study of Mus musculus with 12 samples.

Results

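Immediate early genes are switched on within minutes of a signal at the cell surface, from transcription factors that already sit in the resting cell. The 10 genes described here encode such early transcription factors: Fos, Fosb, Jun and Junb (AP-1 subunits), Egr1, Egr2 and Egr3 (EGR zinc finger factors) and Nr4a1, Nr4a2 and Nr4a3 (NR4A nuclear receptors). They were chosen by name and are 10 of the 17523 genes in the deposited table, and all 10 passed the filter on low values. RNA had been sequenced from CD4+ T cells of the spleens of naïve Gr/fr mice (C57BL/6), in which the Csf2 allele also carries iCre and BFP and the Rosa26 locus carries eYFP behind a stop cassette. YFP therefore marks cells that express, or once expressed, GM-CSF, whether or not they still do so. Cells were sorted by surface markers that include CD44 as naïve (CD44-) or effector memory (TEM, CD44hi), each split into YFP- and YFP+, with 3 libraries per group (4 groups, 12 libraries). All 4 groups carry the same reporter alleles, and no group without them was sequenced. The sorted mice of the study were 2 to 3 months old, and no treatment is given.

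In T cells, ligation of the T cell receptor raises all 3 families through calcium, MAP kinase and serum response factor signalling. Fos and Fosb cannot pair with themselves and bind DNA as dimers with Jun family proteins, whereas Egr2 and Egr3 are known for restraining T cell activation and Nr4a receptors for marking recent antigen receptor signalling. The same genes also respond to handling of tissue and cells.

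The libraries held 40974124 to 57822269 reads on genes (median 44929387). The labels were checked against marker genes. Cd44 had 2334 to 3372 normalized counts in naïve and 21778 to 29383 in TEM libraries. Markers of other cell types were present in TEM libraries: the summed level of 9 conventional dendritic cell markers was 139232 to 289165 in YFP- TEM, 9311 to 23616 in YFP+ TEM and 2737 to 9621 in naïve libraries. The 7 plasmacytoid dendritic cell markers summed to 7731 to 15968, 2777 to 5714 and 649 to 1341 in the same order. Foxp3, which defines regulatory T cells, had 11161 to 19208 normalized counts in YFP- TEM and 6198 to 10484 in YFP+ TEM libraries. Among naïve libraries, YFP+ replicate 2 stood apart, with 8 monocyte and macrophage markers at 5030 against 215 to 972 in the other 5. Xist was high in replicates 1 and 2 and near 0 in replicate 3 of every group, and Ddx3y the reverse, so sex and replicate number cannot be told apart where replicate 3 differs from the others. In bulk RNA, fewer cells that express a gene and less RNA per cell cannot be told apart.

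Sequences just upstream of the transcription start were examined for the letters of early response elements. RefSeq (GRCm38.p6) promoters were at hand for 8 members, not for Egr1 and Egr3, and were searched on both strands for the CArG box (bound by serum response factor), the cyclic AMP response element TGACGTCA and its shorter form TGACG, the AP-1 site TGANTCA, the EGR site GCGNGGGCG and the Nr4a monomer site AAAGGTCA. Only the 250 bases before the start were searched, so elements farther upstream were not looked for. The short element TGACG was found in 7 of the 8, all but Jun, against 19.79% of the 27025 genes with a promoter. Nr4a1, Nr4a2 and Nr4a3 each held 4 copies, the most among the members, and Fos held 2. Egr2 has 5 starts in the table, each of the others 1, and a gene counts if any of its promoters holds the letters. The CArG box was found in Egr2 alone, in 4 of its 5 promoters (1.62% of genes), the EGR site in Fosb, Nr4a1 and Nr4a2 (5.33%), and TGACGTCA, the AP-1 site and AAAGGTCA in none (1.77, 7.82 and 1.55% of genes). The promoters of 4 members are shown because they pair a gene whose level followed cell type (Egr2, Nr4a2) with one whose level followed replicate number (Fos, Nr4a1). For Egr2, one of the 3 promoters that hold both TGACG and the CArG box is shown, and another start lies close by. Capitals mark TGACG, its reverse complement CGTCA and, in Egr2, the CArG box.
Fos (chr12:85473640-85473889, plus strand): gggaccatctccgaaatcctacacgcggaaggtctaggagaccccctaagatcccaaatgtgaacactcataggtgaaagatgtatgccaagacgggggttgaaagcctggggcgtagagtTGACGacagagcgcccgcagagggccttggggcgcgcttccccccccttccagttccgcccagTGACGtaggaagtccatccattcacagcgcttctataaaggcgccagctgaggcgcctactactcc
Egr2 (chr10:67537619-67537868, plus strand): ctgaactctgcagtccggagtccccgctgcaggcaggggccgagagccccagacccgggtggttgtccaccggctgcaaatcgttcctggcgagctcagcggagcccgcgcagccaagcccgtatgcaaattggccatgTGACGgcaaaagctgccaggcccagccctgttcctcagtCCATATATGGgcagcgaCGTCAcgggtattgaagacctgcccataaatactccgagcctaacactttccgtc
Nr4a2 (chr2:57124004-57124253, minus strand): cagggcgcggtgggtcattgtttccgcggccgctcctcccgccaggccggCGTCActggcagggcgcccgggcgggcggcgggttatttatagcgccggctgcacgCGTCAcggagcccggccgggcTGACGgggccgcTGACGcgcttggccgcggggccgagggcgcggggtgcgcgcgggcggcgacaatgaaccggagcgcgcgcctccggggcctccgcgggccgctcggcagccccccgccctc
Nr4a1 (chr15:101266596-101266845, plus strand): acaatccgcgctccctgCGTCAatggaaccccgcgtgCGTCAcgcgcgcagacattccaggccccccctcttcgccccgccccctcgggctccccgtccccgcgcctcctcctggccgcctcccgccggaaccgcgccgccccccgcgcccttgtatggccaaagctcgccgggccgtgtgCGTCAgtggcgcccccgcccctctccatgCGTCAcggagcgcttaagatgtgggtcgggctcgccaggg
For Fosb and Nr4a3, only 30 bases around TGACG are given. These lie within the bounds of the annotated gene, as do the whole windows of Egr2 and Nr4a1 above.
Fosb (chr7:19310089-19310118, minus strand): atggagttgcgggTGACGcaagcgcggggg
Nr4a3 (chr4:48045087-48045116, plus strand): catgtCGTCAcatTGACGtctcgcattcca
A match is a description of the letters in this window. Both kinds of gene carried the short element.

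Levels per kilobase of exon spanned a wide range, and Junb stood first. Its median over the 12 libraries was 15716 normalized counts per kb (9930 to 29870), and its range did not overlap that of Jun, next in order at 3399 per kb (1276 to 5682). Fos followed at 1875 per kb (503 to 6150), Egr1 at 1349 (1020 to 2415) and Nr4a1 at 1255 (639 to 1944), and the ranges of these 3 overlapped with each other and with Jun. Medians were lower for Egr2 at 275 per kb, Egr3 at 248, Fosb at 171 and Nr4a3 at 146, again with overlapping ranges. The highest values of Egr2 (1080) and Fosb (1455) also reached into the ranges of Fos, Egr1 and Nr4a1, and that of Fosb into the range of Jun. Nr4a2 was last at 29.1 per kb (4.35 to 104). The most abundant member of each family was thus Junb, Egr1 and Nr4a1.

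**Figure D1:**
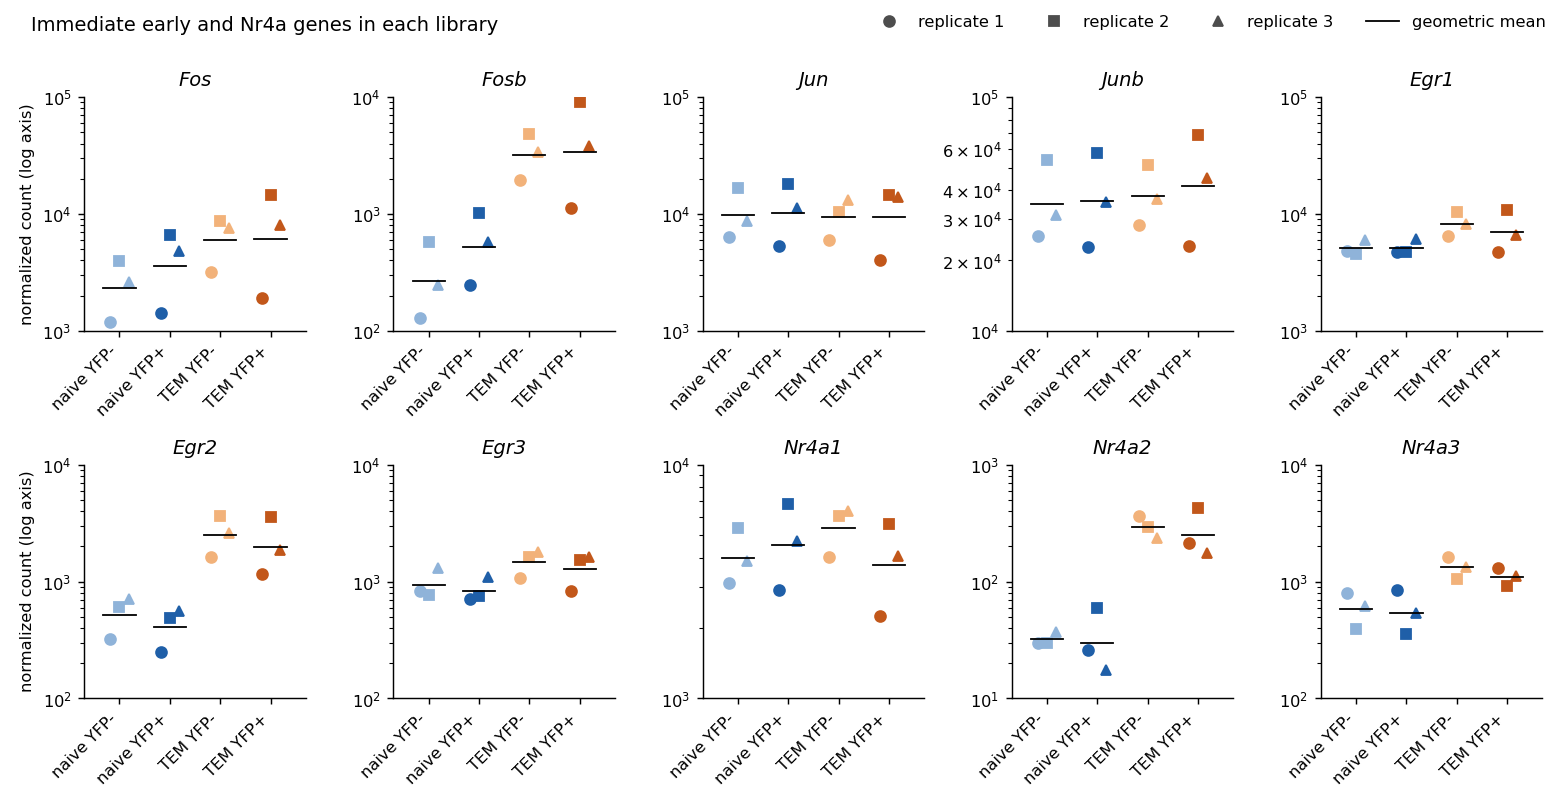
Normalized counts (vertical axis, logarithmic) of the 10 genes in each of the 12 libraries, by group on the horizontal axis; the marker shape gives the replicate number and the line the geometric mean of 3 libraries. Fosb, Egr2, Nr4a2 and Nr4a3 lie higher in all TEM than in all naïve libraries, whereas in Fos, Jun, Junb and Nr4a1 the replicates of a group lie farther apart than the groups.

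TEM cells were compared with naïve cells, first within YFP-. Here 5 of the 10 genes rose in TEM cells (limma, adjusted p of 0.05 or less over 15587 genes) and 0 fell: Fosb 11.9-fold, Nr4a2 8.93-fold, Egr2 4.82-fold, Nr4a3 2.28-fold and Egr1 1.61-fold. With quantile normalization the log2 fold change of Nr4a2 fell from 3.16 to 1.95, and in YFP+ cells from 3.03 to 2.23, still called. Of all tested genes 49.8% were called in this comparison, 29.9% higher and 19.9% lower in TEM cells, so a count of 5 of 10 lies at the background share. Within YFP+ the genes called were Fosb, Egr2, Nr4a2 and Nr4a3, 4 of 10, all higher, where 41.4% of all genes were called and 24.7% were higher. The median log2 fold change of the members was 0.94 in YFP- and 0.69 in YFP+ cells, against 0.049 and 0.033 over all genes. The YFP- and YFP+ comparisons share no library, but they share the estimate of spread from the same fit. Their libraries of the same replicate number were also correlated, so the comparisons are not independent of each other. In the YFP- comparison the 5 called genes were also those without overlap between groups, as were 59% of all genes, and in the YFP+ comparison the 4 called genes (48.7%).

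Of the Fos family members, Fosb was called in both comparisons, and Fos in neither in the fit of all 12 libraries without a block. Fosb had 130, 573 and 249 normalized counts in the YFP- naïve libraries (replicates 1, 2 and 3) and 1962, 4833 and 3371 in the YFP- TEM libraries. In YFP+ cells it had 246, 1016 and 571 in naïve and 1116, 9084 and 3793 in TEM libraries. Every TEM library lay above every naïve one, although replicate 2 exceeded replicate 1 several-fold within each group. The log2 fold change was 3.58 in YFP- (standard error 0.74, limma adjusted p = 0.00144) and 2.69 in YFP+ cells (standard error 0.74, limma adjusted p = 0.011). Leaving out single libraries moved the YFP+ value between 1.97, without TEM YFP+ replicate 2, and 3.49, without TEM YFP+ replicate 1. The YFP+ call of Fosb was lost without replicate 3 of every group (adjusted p = 0.131, limma). Fos had 1183, 3984 and 2602 in YFP- naïve, 3186, 8713 and 7530 in YFP- TEM, 1423, 6620 and 4838 in YFP+ naïve and 1926, 14464 and 8127 in YFP+ TEM libraries. These groups overlapped, yet each TEM library was above the naïve library of the same number, 2.19 to 2.89-fold in YFP- and 1.35 to 2.18-fold in YFP+ cells. The same held for 39.9 and 36.8% of all genes. In that fit Fos was not called in YFP- cells (log2 fold change 1.36, SE 0.74, adjusted p = 0.148, limma). With the replicate number as a block, which pairs these libraries, its adjusted p was 2.2e-04 (limma). Fos was also called without a block in the fit of the compared YFP- libraries only (adjusted p = 0.0361, limma).

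Jun and Junb, the partners of the Fos proteins, showed no detectable difference between TEM and naïve cells. Junb had 25511, 53970 and 31208 normalized counts in YFP- naïve, 28471, 51298 and 36605 in YFP- TEM, 22849, 57516 and 35720 in YFP+ naïve and 23065, 68731 and 45068 in YFP+ TEM libraries. Its log2 fold change was 0.11 in YFP- (95% confidence interval -0.81 to 1.02) and 0.20 in YFP+ cells (-0.71 to 1.12). Jun had 6365, 16528 and 8712 in YFP- naïve and 5956, 10442 and 13277 in YFP- TEM libraries, and its log2 fold change was -0.05 (-1.24 to 1.14). In YFP+ cells Jun had 5333, 18119 and 11237 in naïve and 4068, 14416 and 13982 in TEM libraries, a log2 fold change of -0.13 (-1.33 to 1.06). These intervals are from the fit without a block, and their upper limits lie near the changes of Nr4a3 (1.19 and 1.01). With the replicate block the standard error was 0.13 for Junb and 0.24 for Jun, against 0.42 and 0.55 without it. The fit with the block thus leaves less room for such changes.

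Among the EGR factors, Egr2 set the cell types apart. It had 324, 604 and 710 normalized counts in YFP- naïve and 1626, 3671 and 2608 in YFP- TEM libraries, and 249, 492 and 566 against 1161, 3543 and 1858 in YFP+ cells. No TEM library came near the naïve range. The log2 fold change was 2.27 in YFP- (standard error 0.44, limma adjusted p = 9.9e-04) and 2.26 in YFP+ cells (standard error 0.44, limma adjusted p = 0.00135). Egr1 had 4856, 4572 and 6032 in YFP- naïve and 6485, 10464 and 8233 in YFP- TEM libraries, a log2 fold change of 0.69 (standard error 0.26, limma adjusted p = 0.0415). This call was lost without naïve YFP- replicate 1 or 2 or TEM YFP- replicate 2 or 3, with adjusted p from 0.0861 to 0.162. It was also lost in edgeR on the recovered reads (adjusted p = 0.0591, within a range of 0.0033 to 0.162 over all alternatives). In YFP+ cells Egr1 had 4693, 4752 and 6062 in naïve and 4687, 10829 and 6640 in TEM libraries, so that replicate 1 did not differ between them. Egr3 had 830, 761 and 1318 in YFP- naïve, 1083, 1610 and 1807 in YFP- TEM, 706, 754 and 1098 in YFP+ naïve and 833, 1520 and 1623 in YFP+ TEM libraries. It was higher in TEM cells in all 3 pairs of either YFP status, by 1.18 to 2.12-fold, and was not called (log2 fold change 0.64, adjusted p = 0.087 in YFP-, and 0.60, adjusted p = 0.117 in YFP+ cells, limma).

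Of the 3 Nr4a genes, Nr4a2 and Nr4a3 rose in TEM cells of either YFP status. Nr4a2, the least abundant, had 29.9, 29.7 and 36.9 normalized counts in YFP- naïve and 367, 295 and 234 in YFP- TEM libraries, and 26.0, 59.0 and 17.7 against 215, 424 and 177 in YFP+ cells. The log2 fold change was 3.16 (standard error 0.43, limma adjusted p = 5.3e-05) and 3.03 (standard error 0.43, limma adjusted p = 1.1e-04). Nr4a3 had 804, 390 and 621 in YFP- naïve and 1629, 1063 and 1345 in YFP- TEM libraries, a log2 fold change of 1.19 (standard error 0.31, limma adjusted p = 0.00668). In YFP+ cells it had 840, 353 and 542 in naïve and 1309, 912 and 1109 in TEM libraries, a log2 fold change of 1.01 (standard error 0.31, limma adjusted p = 0.0198). That YFP+ call was lost without naïve YFP+ replicate 2 (adjusted p = 0.0769), TEM YFP+ replicate 1 (0.0713) or TEM YFP+ replicate 3 (0.0504). Nr4a1, the member most used as a reporter of antigen receptor signalling, had 3106, 5350 and 3882 in YFP- naïve and 4036, 6020 and 6320 in YFP- TEM libraries. In YFP+ cells it had 2905, 6821 and 4720 in naïve and 2243, 5568 and 4090 in TEM libraries. TEM libraries of Nr4a1 were above the naïve library of the same number in all 3 YFP- pairs (1.13 to 1.63-fold) and below it in all 3 YFP+ pairs (ratios of 0.772 to 0.866, a pattern of 33.7% of all genes in YFP+ cells), and neither difference was called (log2 fold changes 0.42 and -0.29, adjusted p = 0.353 and 0.545, limma).

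Libraries of the same replicate number deviated together in the YFP- comparison, and fitting that number as a block moved its count. With the block, 8 of 10 members rose in YFP- TEM cells, where 58.4% of all genes were called (58% in edgeR and 57.5% in DESeq2 with the block, which called the same 8 members). Fos (adjusted p = 2.2e-04), Egr3 (0.00468) and Nr4a1 (0.02) were added in limma with the block. Over all alternatives their adjusted p ranged from 3.0e-10 to 0.416, from 7.5e-04 to 0.424 and from 0.00723 to 0.728. Jun and Junb were not called with the block either. In YFP+ cells the block gave 6 of 10, where 51% of all genes were called. It added Fos (adjusted p = 0.0102, limma) and Egr3 (adjusted p = 0.0078, limma). Dendritic cell markers were higher in YFP- TEM than in naïve libraries as well, 9 of 9 conventional and 7 of 7 plasmacytoid ones, and in YFP+ TEM 8 of 9 and 5 of 7. Regulatory T cell markers rose as well, 4 of 4 in either YFP status, with sums of 5820 to 7150 in YFP- naïve, 43713 to 60847 in YFP- TEM, 3334 to 3752 in YFP+ naïve and 37048 to 41236 in YFP+ TEM libraries. Foxp3 itself had 1829 to 2911 normalized counts in YFP- and 1087 to 1309 in YFP+ naïve libraries. The part of these cells in the difference between TEM and naïve cells was not tested.

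**Figure D2:**
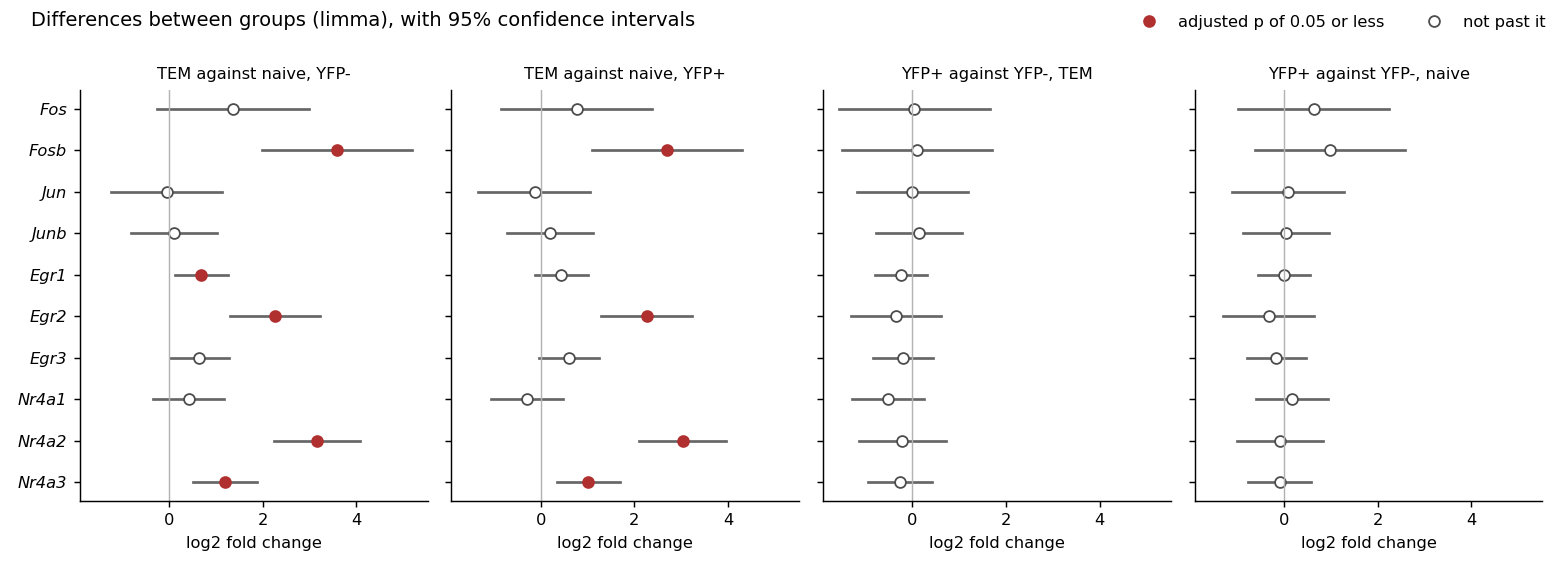
Log2 fold changes of the 10 genes (horizontal axis) in the 4 comparisons, with 95% confidence intervals from limma (n = 3 libraries per group); filled points passed an adjusted p of 0.05. Filled points appear only in the comparisons of TEM with naïve cells, 5 in YFP- and 4 in YFP+, all to the right of 0.

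Levels of 2 members of a family were also set against each other, in ratios chosen after their values were seen. The ratio of Fosb to Fos per kb of exon was 3.6 to 6.51% in the 6 naïve libraries and 16.9 to 23.7% in the 6 TEM libraries, 4.20-fold higher by geometric means. The ratio of Egr2 to Egr1 was 6.99 to 17.4% in naïve and 32.7 to 46.3% in TEM libraries (3.26-fold), and that of Nr4a2 to Nr4a1 was 0.324 to 0.833% and 3.20 to 8.30% (8.41-fold). None of these 3 ratios overlapped between cell types. Dividing by a family member reduced the spread between replicates of Fosb: its level differed 8.14-fold between replicates 1 and 2 of YFP+ TEM cells, whereas its ratio to Fos was 21.8 and 23.7%. The ratios of Egr3 to Egr1 (14.3 to 24.9% in TEM libraries), Jun to Junb (12.7 to 26.2%) and Nr4a3 to Nr4a1 (9.60 to 34.2%) overlapped with those of naïve libraries.

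**Figure D3:**
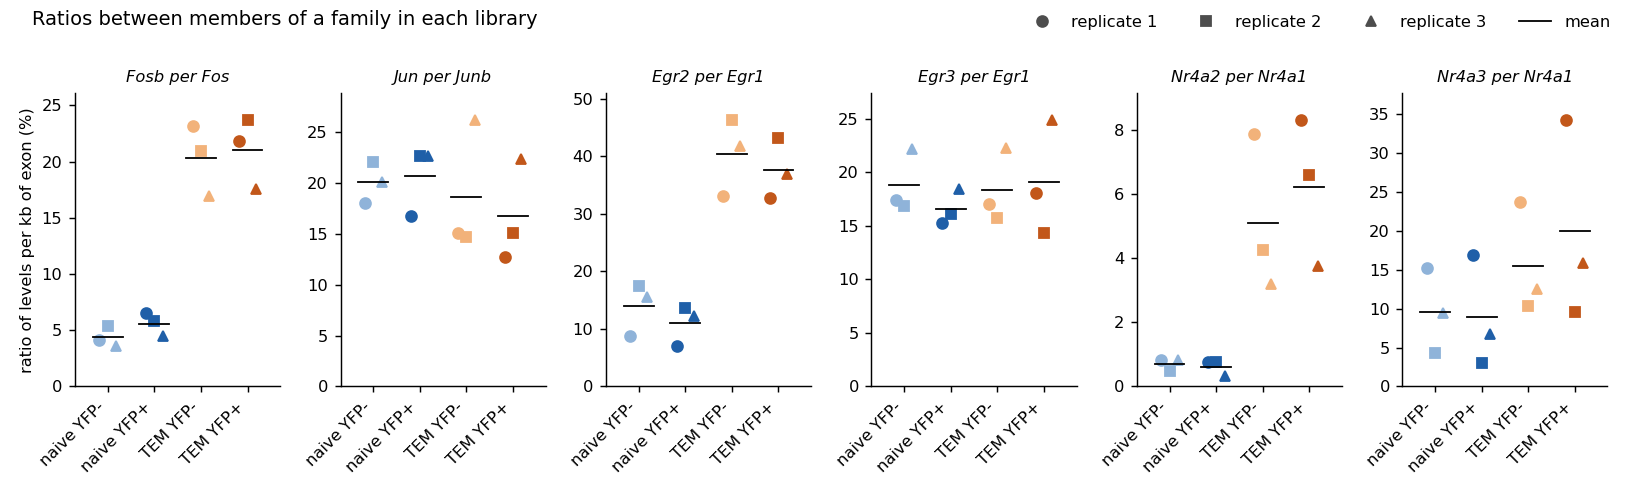
Ratio of 2 members of a family, each per kb of exon, in percent (vertical axis from 0) in each of the 12 libraries; marker shapes give the replicate number and lines the mean of 3 libraries. The ratios of Fosb to Fos, Egr2 to Egr1 and Nr4a2 to Nr4a1 separate all TEM from all naïve libraries, and the other 3 do not.

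The comparison of YFP+ with YFP- TEM cells asked whether cells that had expressed GM-CSF differ in these early genes. None of the 10 was called (limma) against 6.97% of all genes, none had an unadjusted p under 0.05 (17.1%), and in all 10 the groups overlapped (25% of genes had no overlap). The log2 fold changes ran from -0.53 for Nr4a1 to 0.14 for Junb. In the fit without a block, confidence intervals were widest for Fos (0.04, -1.57 to 1.65) and Fosb (0.09, -1.51 to 1.69). Differences as large as that of Nr4a3 between cell types lie inside these intervals. Intervals of this fit were narrowest for Egr1 (-0.24, -0.80 to 0.32) and Egr3 (-0.21, -0.84 to 0.43). With the replicate block the standard errors of Fos and Fosb were 0.21 and 0.23, against 0.74 for each without it. That fit leaves less room for such differences, and neither gene was called in it. Egr2, Egr3, Nr4a1 and Nr4a3 were lower in the YFP+ library of every pair, as were 24.2% of all genes. Nr4a1 had 4036, 6020 and 6320 normalized counts in YFP- and 2243, 5568 and 4090 in YFP+ TEM libraries, with pair ratios of 0.556, 0.925 and 0.647. It was not called in the fit without a block (log2 fold change -0.53, SE 0.35, adjusted p = 0.546, limma) and was lower with the replicate block (adjusted p = 0.0263 in limma, where 12% of all genes were called, and in edgeR and DESeq2, where 13.5 and 15.5% were). Its adjusted p ranged from 0.00272 to 1 over all alternatives. Of the conventional dendritic cell markers 8 of 9 were lower in YFP+ TEM cells, and of the plasmacytoid ones 6 of 7. Of the 4 regulatory T cell markers, 1 was called lower and 0 higher. Foxp3 had 6198 to 10484 in YFP+ against 11161 to 19208 in YFP- TEM libraries. Il2ra, another of the 4, went the other way, with means of 7783 in YFP+ and 4999 in YFP- TEM libraries. Invariant NKT cell markers were higher, 4 of 4, with sums of 439 to 679 in YFP- and 3730 to 8798 in YFP+ TEM libraries, as were 3 of 4 NK cell markers (751 to 912 and 1740 to 2438). Whether these cells contributed to the difference in Nr4a1 was not tested.

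Between YFP+ and YFP- naïve cells, 0 of 10 members were called, as were 0.00642% of all genes (limma). None had an unadjusted p under 0.05, which 3.32% of genes had. Fosb had the largest difference, 130, 573 and 249 normalized counts in YFP- and 246, 1016 and 571 in YFP+ libraries. It was higher in every pair, by 1.89, 1.77 and 2.30-fold, and Fos was too, by 1.2, 1.66 and 1.86-fold, as 16.2% of all genes were. The log2 fold change of Fosb was 0.98 (-0.62 to 2.58, adjusted p = 1, limma), and it stayed uncalled with the block in limma (adjusted p = 0.326, with 0.0385% of genes called). DESeq2 with the block called it (adjusted p = 0.0164, where 0.577% of genes were called). The adjusted p of Fosb thus lay between 0.0164 and 1 over all alternatives. Monocyte and macrophage markers summed to 741, 5030 and 346 in YFP+ and to 416, 972 and 215 in YFP- naïve libraries. These sums were highest in replicate 2, the replicate with the highest Fos and Fosb. In TEM libraries the sums were 7737, 6541 and 12072 in YFP- and 5056, 2450 and 3271 in YFP+ cells. There they were lowest in replicate 2, where Fos and Fosb were again highest. The part of monocytes and macrophages in these values was not tested. The other 8 members had log2 fold changes from -0.33 (Egr2) to 0.18 (Nr4a1).

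The difference between the effects of YFP status in TEM and in naïve cells was tested as an interaction, in which no member was called and none had an unadjusted p under 0.05 (3.55 and 11.7% of all genes, limma). Nr4a1 had a log2 value of -0.71 (-1.79 to 0.37, adjusted p = 0.771), as its level was lower in YFP+ TEM cells and 0.18 higher on the log2 scale in YFP+ naïve cells. With the block its adjusted p was 0.0568 in limma and 0.00917 in DESeq2 (5.71 and 8.26% of genes called), in a range of 0.00917 to 1 over all alternatives. For Fosb the value was -0.89 (-3.15 to 1.38) and for Egr2 -0.01 (-1.37 to 1.36).

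The replicate number went with more of the spread of several members than cell type or YFP status. Replicate 1 had the lowest level in all 4 groups for Fos, Fosb, Jun, Junb, Egr2 and Nr4a1, a pattern held by 7.25% of tested genes. Replicate 2 had the highest level in all 4 groups for Fos, Fosb and Junb (5.24% of genes). Fos was 2.74 to 7.51-fold higher in replicate 2 than in replicate 1 of the same group, Fosb 2.46 to 8.14-fold and Junb 1.80 to 2.98-fold. Nr4a3 ran the other way in every group, with replicate 1 highest and replicate 2 at 0.421 to 0.697 times its level. Egr3 was highest in replicate 3 of every group. Replicates 1 and 2 are both female by Xist.

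Of the sum of squares of the log2 values over the 12 libraries, replicate number accounted for 90.4% in Junb, 83.8% in Jun, 72.8% in Nr4a1 and 66.7% in Fos, against a median of 12.6% over all tested genes. Between 96.1 and 99.8% of tested genes had a lower share than these 4. Cell type accounted for 91.4% in Nr4a2, 79.9% in Egr2, 72.3% in Fosb and 67.2% in Nr4a3 (median 49.5%), and for 0.443% in Nr4a1 and 0.469% in Jun. YFP status accounted for at most 3.89%, in Egr3, and the combination of cell type and YFP status for 13.9% in Nr4a1 (median 2.01%) and for at most 2.1% in the other members. The members thus fell into those whose spread went with replicate number (Jun, Junb, Nr4a1, Fos), those whose spread went with cell type (Nr4a2, Egr2, Fosb, Nr4a3), and Egr1 and Egr3 between them. The sources used here do not say what a replicate number stands for, so animal, day and library preparation cannot be told apart.

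**Figure D4:**
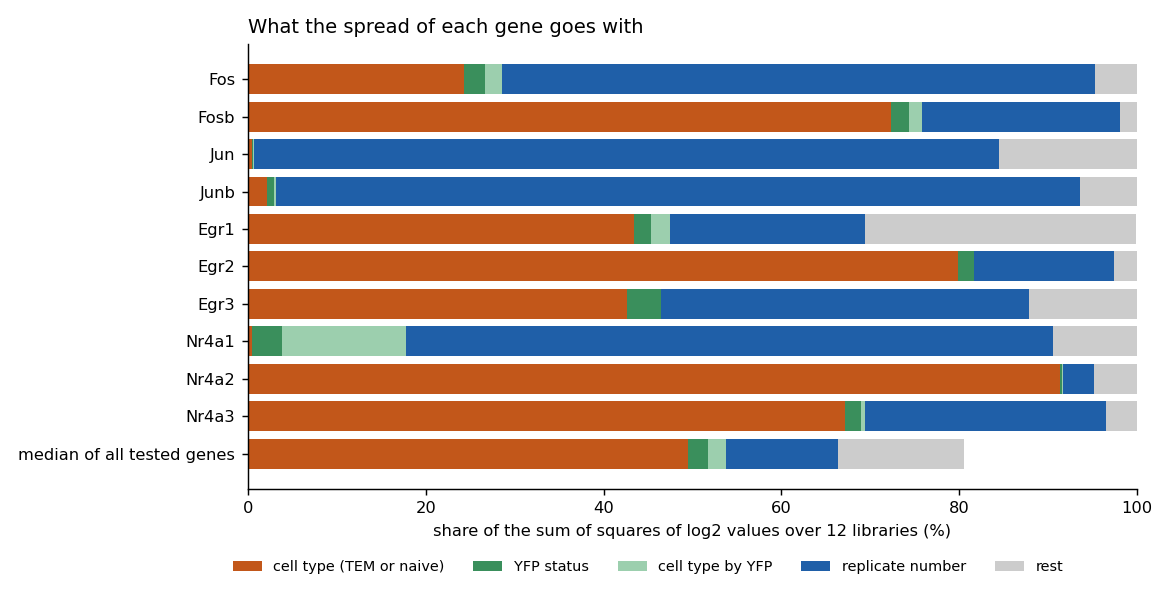
Share of the sum of squares of log2 values over the 12 libraries (horizontal axis, percent) that goes with cell type, YFP status, their combination, replicate number and the rest, for the 10 genes; the bottom bar gives the median of each share over all tested genes, and medians need not add to 100. Replicate number takes 90.4% in Junb and 3.57% in Nr4a2.

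Stress genes gave a mixed picture over the same replicates. Hspa1a and Hspa1b, inducible heat shock proteins, had 27 to 103 and 33.4 to 155 normalized counts, with no replicate lowest in all groups. Hspa8 and Hsp90ab1, abundant chaperones, were highest in replicate 3 of every group (91899 to 125545 and 102797 to 127400), and Hsph1 and Dnaja1 in replicate 1. Socs3, an inhibitor of cytokine signalling, was highest in replicate 2 of every group. Ier2, another immediate early gene, was lowest in replicate 1 of every group with 85.0% of its sum of squares on replicate number, and so was Zfp36, a destabilizer of AU-rich mRNA, with 44.3%. The part of cell handling in these values was not tested.

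Other genes of these pathways were followed from lists. The counts of each list stand beside the shares of all tested genes that were called. Between TEM and naïve cells these were 49.8% in YFP- (29.9% higher, 19.9% lower) and 41.4% in YFP+ cells (24.7% higher, 16.7% lower). With the block the YFP- share was 58.4% in limma and 57.5% in DESeq2. Between YFP+ and YFP- TEM cells it was 6.97%, and 12% with the block in limma. Among 14 tested AP-1 subunits outside the members, 7 rose and 2 fell in YFP- TEM against naïve cells, and 7 and 1 in YFP+ (medians 0.93 and 1.08 on the log2 scale). Batf, a partner of Jun proteins needed for effector differentiation, went from a mean of 859 to 2985 normalized counts in YFP- cells (log2 fold change 1.80, SE 0.22, adjusted p = 1.9e-05, limma). In YFP+ cells it went from 953 to 2684. Maf went from 555 to 13385 and from 699 to 16731 (log2 fold changes 4.59 and 4.55, adjusted p = 4.6e-08 and 6.1e-08, limma). Jund was at 34676 to 39126 in every group mean and was not called. Fosl2 had 705 and 828 in naïve and 1288 and 2139 in TEM cells and was not called (adjusted p = 0.124 and 0.0715, limma), but was in YFP- cells with the block (0.0412). Atf3 and Batf3 had means of 316 and 182 in YFP- TEM cells but 28.4 and 19.0 in YFP+ TEM cells. Between these groups Batf3 was called (log2 fold change -3.19, adjusted p = 0.00703, limma) and Atf3 was not. With the block 2 genes of this list were lower. The conventional dendritic cell markers, of which Batf3 is itself one, were also lower in YFP+ TEM cells. The part of dendritic cells in these values was not tested.

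Corepressors and upstream factors of the EGR genes formed a second list. Of 15 tested, 3 rose and 2 fell in TEM cells of either YFP status, with medians of 0.07 and -0.07 on the log2 scale. In YFP- cells 4 rose and 5 fell with the block, 8 in all were called with quantile normalization or in the fit of the compared libraries only, and 10 in DESeq2 with the block. Nab1 and Nab2, which bind EGR proteins and restrain them, had log2 fold changes of 0.30 and -0.15 in YFP- cells (adjusted p = 0.0803 and 0.615, limma), and Srf, the serum response factor, 0.07 (adjusted p = 0.618). Elk3, a ternary complex factor that binds with Srf, rose from 2779 to 5803 normalized counts (log2 fold change 1.07, adjusted p = 6.5e-06, limma). Nab2 was among the genes whose spread went with replicate number (86.8%).

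Of 32 tested immediate early genes outside the members, 13 rose and 7 fell in YFP- TEM cells, and 10 and 4 in YFP+ TEM cells, with list medians of 0.26 and 0.23 on the log2 scale. Dusp1, a MAP kinase phosphatase, rose 1.88 on the log2 scale in YFP- and 1.82 in YFP+ cells (adjusted p = 6.4e-04 and 0.00107, limma). Klf2, a factor for T cell quiescence and lymphoid homing, went the other way, from 44022 to 19439 and from 46462 to 21292 normalized counts (log2 fold changes -1.16 and -1.11, adjusted p = 1.1e-04 and 2.1e-04, limma). Cd69, an early activation antigen, was also lower in TEM cells (-0.79 and -0.46, adjusted p = 1.6e-05 and 0.00161). Ier2 and Btg2 were not called. In the comparison of YFP+ with YFP- TEM cells, Cd69 (0.36, adjusted p = 0.0310) and Dusp2, a nuclear MAP kinase phosphatase (0.58, adjusted p = 0.0405), were higher in YFP+ cells, and Rgs2 was lower (-1.06, adjusted p = 0.0169, limma). With the block, 3 genes of this list were higher and 5 lower between these groups. In naïve cells no gene of the 5 lists was called between YFP+ and YFP- without the block.

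Targets of T cell receptor and NFAT signalling that are tied to Nr4a and Egr2 or Egr3 formed the last of the lists. Of 24 tested, 20 rose and 3 fell in TEM cells of either YFP status, with medians of 3.10 and 3.36 on the log2 scale. Il2ra, Ctla4 and Ikzf2 of this list are also regulatory T cell markers, which rose in TEM cells of either YFP status. The part of regulatory T cells in the rise of this list was not tested. Tigit, an inhibitory receptor, rose from a mean of 28.8 to 7411 and from 39.9 to 7181 normalized counts (log2 fold changes 8.08 and 7.41, SE 0.48), and Tox2, a transcription factor of dysfunctional and follicular helper T cells, from 33.2 to 5184 and from 42.5 to 4836 (7.33 and 6.82, SE 0.37). Cd5, whose surface level follows the strength of self-recognition, had 17759 and 24374 in YFP- naïve and TEM cells (log2 fold change 0.47, adjusted p = 0.0100, limma). In YFP+ naïve cells it had 24887 against 17759 in YFP- naïve cells, which was not called (log2 fold change 0.49, adjusted p = 0.947, limma). With the block, Il2ra, the alpha chain of the interleukin 2 receptor, was lower in YFP+ naïve cells, with 655, 560 and 898 normalized counts against 1358, 1198 and 1852 in YFP- naïve cells (log2 fold change -1.06, SE 0.10, adjusted p = 0.00554, limma). Nrn1, which encodes neuritin, was lower too, with 187, 222 and 184 against 306, 379 and 304 (-0.73, adjusted p = 0.0126). Neither was called without the block (0.947 and 0.378), and the summed regulatory T cell markers, Il2ra among them, were also lower in YFP+ naïve libraries. Between TEM groups 2 genes of this list were higher and 1 lower in YFP+ cells, and 5 and 4 with the block. The heat shock and dissociation list had 9 of 21 genes higher and 3 lower in YFP- TEM cells, and 5 and 2 in YFP+ TEM cells.

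For each member, the tested gene with the most similar pattern was the one at the smallest root mean square distance between centred log2 values over the 12 libraries. The closest was Trim8 for Egr1 (0.14), followed by Ncbp2 for Egr3 and Bnip1 for Nr4a1 (both 0.18). Zfp607b was nearest to Junb (0.23), Ctnna1 to Nr4a3 (0.23), Lenep to Jun (0.25) and Prnp, the prion protein gene, to Nr4a2 (0.26). Plk3, itself an early response kinase, was nearest to Egr2 (0.34), Zfp948 to Fos (0.50) and Dpysl5 to Fosb (0.56). Within the 10, Nr4a1 lay nearest to Junb (0.29), Junb to Nr4a1, and Egr1 and Egr3 to each other (0.23).

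In the genome (GRCm38.p6), Egr2 (chromosome 10, 67534469 to 67542188) overlaps Gm32255, and Nr4a2 (chromosome 2, 57106830 to 57124003) overlaps LOC105244150, neither of which is in the table. No overlapping RefSeq gene was found for the other 8. Fos lies on chromosome 12 (85473890 to 85477274), Fosb on chromosome 7 (19302696 to 19310118), Nr4a1 on chromosome 15 (101253902 to 101274795) and Nr4a3 on chromosome 4 (48045078 to 48086447), the chromosome that also holds Jun (95049036 to 95052222).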

How the data were processed

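Sorted naïve and TEM CD4+ T cells, YFP- and YFP+, gave 12 bulk RNA libraries (3 per group, from 3 mice according to the methods). Total RNA (200 ng) was prepared with the TruSeq Stranded Total RNA kit and sequenced on a HiSeq2500. The authors mapped reads to mm10 with DRAGEN, counted them with Rsubread and divided counts by DESeq2 size factors; the deposited signal values are these normalized counts. The annotation, strand setting and tool versions are not given in the sources used here.

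All values were whole reads after multiplication by the size factor (100% within 0.001). Entrez identifiers were matched to RefSeq symbols on GRCm38.p6 (16749 of 17523 genes) and exon lengths came from GENCODE M21 (15018 genes). Genes reaching 5 normalized counts in 3 or more libraries (15587) were fitted as log2 of the value plus 1 with limma 3.58.1 (R 4.3.3), 4 group means over all 12 libraries, 8 residual degrees of freedom, eBayes with a trend and Benjamini-Hochberg adjustment over all tested genes. Calls required an adjusted p of 0.05 or less, with no threshold on fold change. Fold changes are on the log2(value + 1) scale, which understates changes of low genes such as Nr4a2. The sums of squares were split over cell type, YFP status, their combination and replicate number. Scripts were tested on simulated data.

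Groups followed the sample titles. Libraries of one replicate number were compared after removal of group means. Correlations were 0.180, 0.338 and 0.356 between YFP- and YFP+ TEM libraries and 0.306, 0.491 and 0.360 between YFP- and YFP+ naïve libraries. Between YFP- naïve and YFP- TEM libraries they were 0.168, 0.137 and 0.232. The numbers were taken to pair the libraries in these comparisons. Between YFP+ naïve and YFP+ TEM libraries they were 0.204, -0.0199 and 0.0561, which did not show pairing and cannot exclude it. The pairings taken above link these libraries too, through the YFP- groups. Xist and Ddx3y set replicate 3 apart in every group. Whether same-numbered libraries came from one animal is not stated.

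The genes named are the 10 members in every comparison, from each list a fixed set (Nab1, Nab2, Srf, Jund, Fosl2, Batf, Ier2, Klf2, Klf6, Zfp36, Btg2, Cd69, Cd5, Dusp1 and Dusp2) and the 3 largest called changes among genes averaging 50 normalized counts or more, of which a selection is given, and the nearest gene of each member. Single stress genes, the family ratios, Il2ra and Nrn1 were chosen after their values were seen. The members and lists were chosen with earlier results of these data known. Alternatives were no filter on low values, a minimum mean of 10, pseudocounts of 0.1 and 5, TMM factors, quantile normalization, a fit of the libraries compared only, no trend, the replicate block, tests of the recovered reads in DESeq2 1.42.0 and edgeR 4.0.16, and leaving out each library. Added after seeing the data were leaving out one replicate number of every group, and edgeR or DESeq2 with the block. Some marker genes checked are not reported here.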

Additional observations from a re-analysis of the deposited data

How the results depend on the processing

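The number of members called in TEM against naïve cells was 5 in YFP- and 4 in YFP+ cells. With the replicate block it was 8 in YFP- cells in limma, edgeR and DESeq2. In YFP+ cells the correlations did not show pairing, but the pairings taken in the other comparisons link these libraries too. There the block gave 6 (51% of all genes called). It added Fos (adjusted p = 0.0102, limma) and Egr3 (adjusted p = 0.0078, limma). Leaving out single libraries gave 4 to 6 in YFP- and 3 to 5 in YFP+ cells. Without replicate 3 of every group the counts were 3 and 2. Egr1 and Nr4a3 then dropped out in YFP- cells (adjusted p = 0.132 and 0.0853, limma). In YFP+ cells Fosb and Nr4a3 did (adjusted p = 0.131 and 0.174, limma). Between YFP+ and YFP- TEM cells the block gave 1 (Nr4a1) in limma, edgeR and DESeq2; between naïve cells and for the interaction, DESeq2 with the block gave 1 each (Fosb and Nr4a1). For members, limma with the block changed no other call. Calls of list genes did change with it: in YFP- TEM against naïve cells, higher and lower calls went from 13 and 7 to 16 and 10 for other immediate early genes, from 3 and 2 to 4 and 5 for EGR partners and from 9 and 3 to 11 and 4 for heat shock genes. Leaving out libraries gave 0 in these 3 comparisons. All other alternatives tried gave member counts within 1.5 times of these. Quantile normalization moved the median log2 fold change of all genes from 0.049 to -0.197 in YFP- and from 0.033 to -0.138 in YFP+ TEM against naïve cells; Jun in YFP- cells then turned from -0.05 to 0.055. The causes were not tested.

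Signs turned only in uncalled log2 fold changes. Between YFP+ and YFP- TEM cells, Jun was 0.029 with TMM, 0.16 in edgeR, 0.13 in DESeq2 and 0.023 in edgeR with the block, and Nr4a2 was 0.058 with quantile normalization. Between naïve cells, Egr1 was -0.0025 and -0.0011 in edgeR and DESeq2 with the block, and Nr4a2 was 0.088 and 0.093 in edgeR and DESeq2. In the interaction, Jun was 0.038 in edgeR; Egr2 was 0.027 with TMM, 0.089 in edgeR, 0.055 in DESeq2, and 0.046 and 0.014 in edgeR and DESeq2 with the block; Egr3 was 0.0014 with quantile normalization, 0.0012 with TMM, 0.04 in edgeR, 0.0067 in DESeq2 and 0.023 in edgeR with the block; Nr4a2 was 0.27 with quantile normalization. Without replicate 1 of every group, Jun and Nr4a2 were 0.27 and 0.058 between TEM cells, and Jun, Egr2, Egr3 and Nr4a2 were 0.02, 0.04, 0.02 and 0.085 in the interaction. Without replicate 2, Jun was 0.26 in YFP- TEM against naïve cells, Fos, Fosb and Junb were -0.31, -0.32 and -0.0018 between TEM cells, Egr1 was -0.021 between naïve cells, and Junb and Nr4a2 were -0.02 and 0.025 in the interaction. Without replicate 3, Jun, Junb and Nr4a2 were -0.061, -0.034 and 0.38 between naïve cells, and Jun and Egr2 were 0.019 and 0.068 in the interaction.

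Leaving out single libraries gave log2 ranges that crossed 0. In YFP- TEM against naïve cells these were -0.35 to 0.33 for Jun and -0.12 to 0.42 for Junb, and in YFP+ cells -0.61 to 0.47 for Jun, -0.16 to 0.63 for Junb and -0.61 to 0.072 for Nr4a1. Between YFP+ and YFP- TEM cells they were -0.58 to 0.87 for Fos, -0.62 to 0.89 for Fosb, -0.33 to 0.60 for Jun, -0.22 to 0.56 for Junb, -0.56 to 0.042 for Egr1, -0.77 to 0.039 for Egr2, -0.42 to 0.099 for Egr3 and -0.59 to 0.04 for Nr4a2. Between YFP+ and YFP- naïve cells they were -0.33 to 0.55 for Jun, -0.29 to 0.37 for Junb, -0.12 to 0.12 for Egr1, -0.67 to 0.028 for Egr2, -0.37 to 0.073 for Egr3, -0.12 to 0.50 for Nr4a1, -0.56 to 0.29 for Nr4a2 and -0.41 to 0.22 for Nr4a3. For the interaction they were -1.26 to 0.24 for Fos, -0.56 to 0.52 for Jun, -0.27 to 0.52 for Junb, -0.57 to 0.037 for Egr1, -0.43 to 0.37 for Egr2, -0.28 to 0.27 for Egr3, -0.50 to 0.34 for Nr4a2 and -0.49 to 0.13 for Nr4a3.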
